A study of Mus musculus with 24 samples.

Results

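The genes described here are 10 enzymes and helper proteins that make prostaglandins, thromboxane and leukotrienes: Ptgs1, Ptgs2, Ptges, Ptgds, Hpgds, Ptgis, Tbxas1, Alox5, Alox5ap and Ltc4s. They were chosen by gene symbol, for their place in this pathway, and are 10 of the 45777 genes in the table of counts. RNA was measured by polyA RNA sequencing of skin and of dorsal root ganglia (DRG, which house the cell bodies of the neurons that sense touch, heat and pain) from female BALB/c mice of 6 weeks. The 4 groups were control skin, rosacea model skin, control DRG and rosacea model DRG, with 6 libraries each and 24 in all. In the model, LL37 at 320 µM was injected into the skin in 40 µL for 2 days, and DRG were taken on day 4. LL37 is a human antimicrobial peptide that causes rosacea-like redness and inflammation in mouse skin. The sources used here do not give what the controls received or when skin was taken. Gabapentin was given by mouth from day 3, without a statement of which animals received it, so its part in any difference between model and control cannot be told apart from that of LL37. Separate animals are not named for the libraries of a group, and p-values then measure only how far these libraries spread, which may be technical.

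Arachidonic acid, released from membranes by phospholipases A2, enters the pathway along separate arms. The cyclooxygenases Ptgs1 and Ptgs2 turn it into prostaglandin H2, from which terminal synthases make prostaglandin E2 (Ptges), prostaglandin D2 (Ptgds and Hpgds), prostacyclin (Ptgis) and thromboxane A2 (Tbxas1). In the other arm Alox5, with its membrane partner Alox5ap, makes leukotriene A4, which Ltc4s joins to glutathione to give leukotriene C4. In skin some of these lipids widen vessels, some draw in leukocytes and some sensitise nerve endings, and not each does all of these. The leukotriene enzymes and Tbxas1 are known from myeloid cells, Hpgds and Ltc4s also from mast cells, Ptgis from vessels and fibroblasts, and Ptgds from leptomeninges and melanocytes.

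Total counts ranged from 45238735 to 68396846 per library. The labelled tissues bore their own markers: summed levels of 8 sensory neuron genes were 6177 to 8781 CPM (counts scaled to library size) in DRG and 8.67 to 46.2 in skin, and those of 5 keratinocyte genes were 8955 to 26458 CPM in skin and 3.06 to 9.66 in DRG. Libraries of a group differed in tissue make-up. Hair follicle genes (7 genes, summed) were at 1170 CPM in control skin replicate 2, 32228 to 51607 CPM in the other 5 controls and 1787 to 26237 CPM in model skin. None of the 7 was called, and all 7 had negative log2 differences (median -1.59). In DRG, 4 spinal cord oligodendrocyte genes summed to 31.8 CPM in control DRG replicate 5 against at most 0.926 in every other library. All values are from bulk tissue, in which fewer cells of a type and less RNA per cell cannot be told apart.

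The 250 bases before 1 RefSeq transcription start per gene are shown for 3 genes that rose in model skin (Tbxas1, Alox5 and Ltc4s). They are also shown for the 2 members that held GAGGAAGT, the string searched as a PU.1 core (Ptgs1 and Hpgds). Several members are known as myeloid genes, and PU.1 is a factor of that lineage. RefSeq promoters of GRCm38.p6 were at hand for 8 of the 10 members, not for Ptgis and Alox5ap. They lie at chr6:38918736-38918985 (plus strand), chr6:116461179-116461428 (minus strand), chr11:50238533-50238782 (minus strand), chr2:36230176-36230425 (plus strand) and chr6:65144731-65144980 (minus strand). For Tbxas1, Ptgs1 and Hpgds the start used lies inside the span of the gene in RefSeq, downstream of its outermost 5′ end, so these windows are not the only candidate promoters. Each is written 5′ to 3′ along its gene, and capitals mark TATAAA in Tbxas1 (found on both strands, overlapping) and GAGGAAGT in Ptgs1 and Hpgds.
Tbxas1: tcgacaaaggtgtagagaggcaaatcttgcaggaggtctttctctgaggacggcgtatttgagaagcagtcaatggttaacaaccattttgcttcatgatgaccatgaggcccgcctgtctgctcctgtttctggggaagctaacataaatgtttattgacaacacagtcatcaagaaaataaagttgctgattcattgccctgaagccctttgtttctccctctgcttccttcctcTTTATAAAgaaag
Alox5: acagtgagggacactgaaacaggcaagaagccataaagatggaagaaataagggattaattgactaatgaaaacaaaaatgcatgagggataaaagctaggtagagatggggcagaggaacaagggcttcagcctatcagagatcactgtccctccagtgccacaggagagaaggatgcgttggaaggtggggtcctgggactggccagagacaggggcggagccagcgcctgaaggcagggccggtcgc
Ltc4s: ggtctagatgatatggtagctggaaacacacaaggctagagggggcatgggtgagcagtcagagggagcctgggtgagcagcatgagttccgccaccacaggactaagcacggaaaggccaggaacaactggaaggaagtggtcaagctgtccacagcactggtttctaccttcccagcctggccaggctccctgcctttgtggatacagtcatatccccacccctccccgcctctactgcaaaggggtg
Ptgs1: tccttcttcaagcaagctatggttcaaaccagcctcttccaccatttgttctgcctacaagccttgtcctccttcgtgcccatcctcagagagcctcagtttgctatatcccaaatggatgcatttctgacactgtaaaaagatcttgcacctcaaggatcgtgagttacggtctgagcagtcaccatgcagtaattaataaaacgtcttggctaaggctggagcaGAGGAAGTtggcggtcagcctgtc
Hpgds: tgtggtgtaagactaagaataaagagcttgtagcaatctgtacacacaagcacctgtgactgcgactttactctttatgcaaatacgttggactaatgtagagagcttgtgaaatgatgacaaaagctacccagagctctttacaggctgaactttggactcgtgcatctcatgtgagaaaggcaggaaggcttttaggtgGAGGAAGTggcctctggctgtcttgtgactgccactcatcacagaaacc
GAGGAAGT, searched as the PU.1 core, lay 24 to 17 bases before the start of Ptgs1 and 49 to 42 bases before that of Hpgds. Of the 32851 promoters of this length, 2.44% held it on either strand. TATAAA, the TATA box, lay 11 to 6 bases before the start of Tbxas1 and was in 12.4% of all promoters. The STAT palindrome TTCNNNGAA (7.02% of promoters), the core of the interferon-stimulated response element (2.98%) and the NF-kB core (4.77%) were in none of the 8, on either strand. The genes that changed in skin lie, in RefSeq GRCm38.p6, as Ptgds at chr2:25466709-25470110 and Ptgis at chr2:167203194-167252150 on the minus strand, Tbxas1 at chr6:38864159-39084590 and Alox5ap at chr5:149265004-149288153 on the plus strand, and Alox5 at chr6:116410071-116461178 and Ltc4s at chr11:50236461-50238532 on the minus strand. A motif match describes the letters only. None of the 3 genes shown for having risen held GAGGAAGT in this window. Only exact matches to the strings searched were counted, so shorter or inexact forms of a motif may be present.

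In skin, 5 of the 10 genes rose in the model and 1 fell. Those that rose were the terminal synthases Ptgis and Tbxas1 and the leukotriene genes Alox5, Alox5ap and Ltc4s, by 2.10 to 11.5-fold, while Ptgds fell. Both cyclooxygenases, Ptges and Hpgds did not pass the test. A gene was called where its Benjamini-Hochberg adjusted p from the quasi-likelihood test of edgeR was under 0.05, over 19526 genes, of which 19.9% were called, 14.1% as higher and 5.82% as lower. All 10 members passed the filter on low counts in both tissues. The median log2 fold change of the members was 0.82, against -0.02 over all genes tested. For 3 members all model libraries exceeded all controls, as for 7.25% of genes tested, for none did all lie below (1.44%), and 8.69% of genes had no overlap either way.

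**Figure D1:**
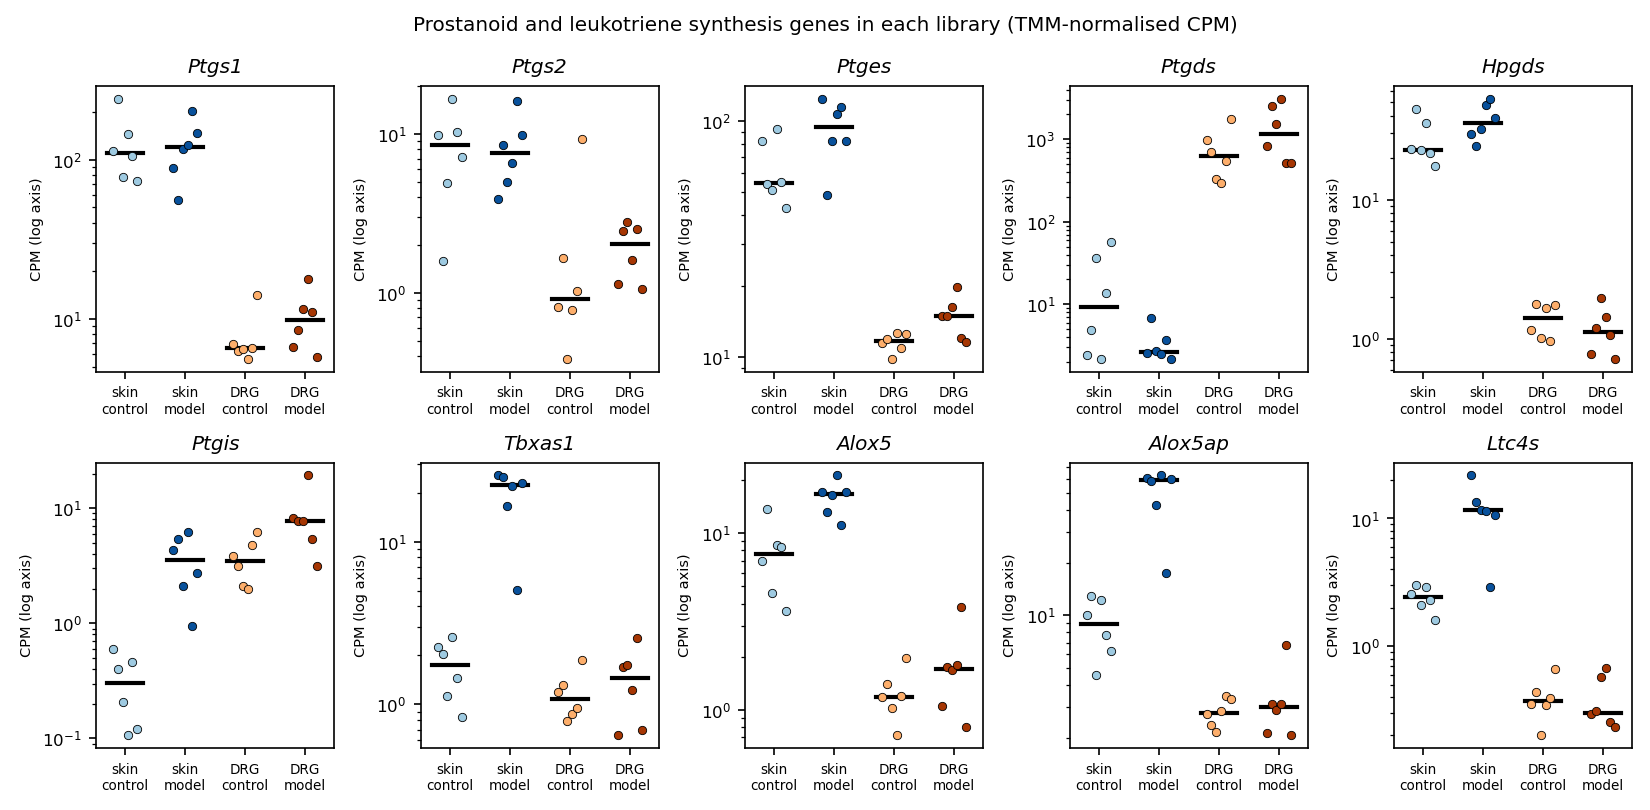
Level of each gene in each library, in CPM scaled within a tissue (log axis). Points are libraries, 6 in each of the 4 groups, and the line is the group's median. Tbxas1, Ptgis and Alox5ap have no overlap between control and model skin, and Ptgds in DRG stands at 294 CPM or more in every library.

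Ptgs1, the constitutive cyclooxygenase, was not called. It measured 73.1 to 240 CPM in control skin (median 110) and 55.9 to 203 CPM in model skin (median 120), so the groups overlapped almost wholly. The log2 difference was -0.04 (SE 0.33, adjusted p = 0.948). Its extremes fell on libraries that also stood at the ends of the keratinocyte sum: control replicate 2 had the highest values of both (240 and 26458 CPM) and model replicate 2 the lowest of both (55.9 and 8955 CPM). The part of keratinocyte content in Ptgs1 was not tested.

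Ptgs2, the inducible cyclooxygenase, stayed low. Control skin ran from 1.59 to 16.6 CPM (median 8.53) and model skin from 3.90 to 16.1 CPM (median 7.59), with a log2 difference of -0.01 (SE 0.47, adjusted p = 0.985). Libraries of each group covered the same range and neither cyclooxygenase kept the sign of its difference under other settings.

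Ptges, the microsomal prostaglandin E synthase, measured 42.9 to 92.4 CPM in control skin (median 54.5) and 48.7 to 124 CPM in model skin (median 94.6). In 3 of 6 model libraries it was above every control, yet model replicate 2 was among the lowest. The log2 difference of 0.57 (SE 0.24, adjusted p = 0.113) was not called. Without model replicate 2 it was 0.71 (adjusted p = 0.0320), and with all 24 libraries in 1 fit 0.53 (adjusted p = 0.0425).

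The prostaglandin D2 synthases behaved unlike each other. Ptgds, the lipocalin type, measured 2.18 to 56.3 CPM in control skin (median 9.24) and 2.20 to 6.90 CPM in model skin (median 2.63). Control replicates 3, 5 and 6 were high at 36.4, 13.7 and 56.3 CPM. The other controls, at 2.18 to 4.82 CPM, lay within the model's range or just below it. It fell by 2.49 on the log2 scale (SE 0.78, adjusted p = 0.0417), a 5.62-fold decrease. The call was lost without any of control replicates 3, 5 and 6 or model replicates 1, 3, 4, 5 and 6 (adjusted p up to 0.109), without the filter (adjusted p = 0.0632) and on log2(TPM + 1) (adjusted p = 0.192). Without control replicate 6 the log2 difference was -1.80.

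The summed level of 7 melanocyte genes had the same order of high libraries. It was 504, 216 and 867 CPM in control replicates 3, 5 and 6, 30.6 to 54.5 CPM in the other controls and 25.2 to 97.1 CPM in model skin, and 5 of the 7 genes were called lower. Model replicate 2 was the highest model library for both Ptgds (6.90 CPM) and the melanocyte sum (97.1 CPM). The gene most like Ptgds over the 12 skin libraries was Mlana, a melanosome protein (Spearman's rho 0.97 among 14320 genes compared), followed by Egfl8 (0.96) and Hhip (0.94). The part of melanocyte content, or of hair follicle content, in the Ptgds difference was not tested.

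Hpgds, the hematopoietic prostaglandin D synthase, measured 17.6 to 44.7 CPM in control skin (median 22.9) and 24.2 to 53.0 CPM in model skin (median 35.6). In 2 of 6 model libraries it exceeded all controls, and the log2 difference of 0.45 (SE 0.25, adjusted p = 0.218) was not called. Mast cell genes, with which Hpgds is often found, were called higher for 6 of 8, their sum being 76.3 to 112 CPM in control and 124 to 230 CPM in model skin. Over the 12 skin libraries Spearman's rho of Hpgds with this sum was 0.56, and within the model libraries -0.49. It was 0.85 with the smooth muscle and pericyte sum, 0.83 with the fibroblast sum and -0.83 with the hair follicle sum. The part of these cell types in Hpgds was not tested.

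Tbxas1, thromboxane A synthase, had the smallest p of the members. It measured 0.837 to 2.59 CPM in control skin (median 1.75) and 5.03 to 25.5 CPM in model skin (median 22.4). No model library reached down to a control, and model replicate 5 was well below the other 5, which were at 16.6 CPM or more. The rise was 11.4-fold (log2 3.51, SE 0.40, adjusted p = 0.000548), and it stayed called without each library in turn (log2 3.36 to 3.75).

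The genes most like Tbxas1 over the 12 skin libraries were Ifnar1, a type I interferon receptor chain, Rsu1, a Ras suppressor, and Tlr4, the lipopolysaccharide receptor, each with a Spearman's rho of 0.99. All 10 monocyte and macrophage genes were called higher, their sum being 204 to 535 CPM in control and 733 to 2272 CPM in model skin, with model replicate 5 the lowest model library here too. Of platelet genes, the other textbook source of thromboxane, 1 of 3 tested was called higher and all 3 had positive log2 differences (median 1.96). The sum of the 5 platelet genes listed was 9.63 to 18.9 CPM in control and 18.4 to 56.7 CPM in model skin, with model replicate 5 again the lowest model library, and of these 5 genes Gp9 was at 0 in all 6 model libraries. The part of macrophage or platelet content in the rise of Tbxas1 was not tested.

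Ptgis, prostacyclin synthase, measured 0.106 to 0.603 CPM in control skin (median 0.306) and 0.956 to 6.26 CPM in model skin (median 3.54). The groups did not overlap, and model replicate 5 was again the lowest of its group. Behind these values stood 6 to 29 counts per control library and 58 to 417 per model library. The rise was 11.5-fold (log2 3.52, SE 0.54, adjusted p = 0.00106). On log2(TPM + 1), which compresses low values, the difference was 1.81 (adjusted p = 0.00121), and the gene did not reach the stricter filter (1 CPM in 6 libraries).

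Endothelial genes were called higher for 4 of 5 (sum 88.2 to 134 CPM in control and 139 to 292 CPM in model skin) and fibroblast genes for 3 of 5 (1438 to 3151 against 2579 to 4514 CPM). Exons of Ptgis share 156 bases with the antisense gene 1110018N20Rik, which had 15 to 29 counts in control skin, 28 to 113 in model skin and 1404 to 1970 in DRG. The sources used here do not give the strand setting of the counting, so reads of this stretch cannot be told apart. Exons of Ptgs1, Tbxas1, Alox5ap and Ltc4s likewise overlap an antisense gene model that has no row in the table. What vessel or fibroblast content added to the Ptgis difference was not tested.

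**Figure D2:**
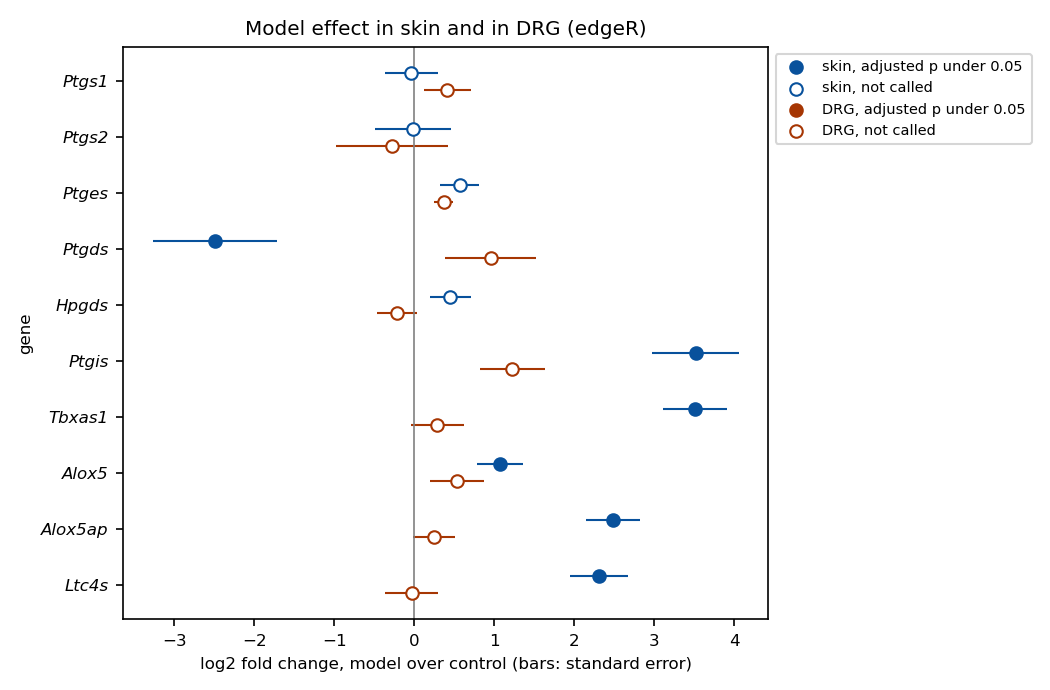
log2 fold change of model over control (x axis) for each gene (y axis) in skin and DRG, from edgeR, with its standard error as a bar. Filled points passed an adjusted p under 0.05. In skin 5 genes lie to the right and Ptgds to the left, and no point of DRG is filled.

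All 3 members of the leukotriene arm rose. Alox5, arachidonate 5-lipoxygenase, measured 3.61 to 13.8 CPM in control skin (median 7.66) and 11.2 to 21.3 CPM in model skin (median 16.8). In 4 of 6 model libraries it was above all controls, and control replicate 2 was above model replicates 2 and 5. The rise was 2.10-fold (log2 1.07, SE 0.29, adjusted p = 0.0218), and adjusted p without each library in turn was 0.00317 to 0.0487.

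Alox5ap, the protein that presents arachidonic acid to Alox5, measured 4.58 to 12.9 CPM in control skin (median 8.93) and 17.4 to 62.9 CPM in model skin (median 59.1). No libraries overlapped between the groups, and 5 of 6 model libraries were at 42.9 CPM or more. The rise was 5.61-fold (log2 2.49, SE 0.34, adjusted p = 0.000595).

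Ltc4s, leukotriene C4 synthase, measured 1.62 to 3.00 CPM in control skin (median 2.43) and 2.89 to 21.7 CPM in model skin (median 11.6). In 5 of 6 model libraries it was at 10.6 CPM or more, and model replicate 5, at 2.89 CPM, was within the control range. The rise was 4.95-fold (log2 2.31, SE 0.36, adjusted p = 0.00122).

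Model replicate 5 was thus the lowest model library for Ptgis, Tbxas1, Alox5, Alox5ap and Ltc4s. It was also the lowest for the summed macrophage, mast cell, neutrophil, eosinophil, platelet and endothelial genes, while it was the highest model library for Ptgs1, Ptgs2 and Hpgds. Without it the log2 rises were 3.76 for Ptgis, 3.75 for Tbxas1, 1.20 for Alox5, 2.71 for Alox5ap and 2.55 for Ltc4s, and all 5 stayed called. Neutrophil genes were called higher for 4 of 7, and 5 of 7 had positive log2 differences (lowest -1.01). Their sum overlapped between the groups, at 18.5 to 282 CPM in control and 60.1 to 262 CPM in model skin, with control replicate 1 the highest. Eosinophil genes were called higher for 2 of 2 tested. The sum of the 4 eosinophil genes listed was 0.498 to 1.53 CPM in control and 2.59 to 28.0 CPM in model skin, and model replicate 1 had the highest of this sum and of Ltc4s (21.7 CPM). Of these 4 genes Epx was at 0 in all control libraries and in 5 of 6 model libraries. Hair follicle genes stood the other way round: control replicate 2 and model replicate 4, the lowest of their groups in that sum, had the highest Alox5 and Alox5ap of their groups. How far these cell types, or hair follicle content, carry the leukotriene genes was not tested.

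In DRG none of the 10 genes was called, either way, where 0.0974% of 19509 genes were called, all of them as higher. At an unadjusted p under 0.05 stood 2 members, Ptges and Ptgis, and 1822 genes in all, and DESeq2 also called no member. Every gene but Ptgds was at 19.9 CPM or less in each DRG library. The members' median log2 difference was 0.33, against -0.01 over all genes tested, and every member's groups overlapped, while 0.528% of genes had no overlap (0.379% with all model libraries above, 0.149% with all below).

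Ptgds was the exception in level. It measured 294 to 1781 CPM in control DRG (median 625) and 511 to 3079 CPM in model DRG (median 1172). Model replicates 2 and 4 were above every control, model replicates 5 and 6 were below the control median, and the log2 difference of 0.96 (SE 0.57, adjusted p = 0.621) was within the spread of both groups. Ptgis measured 1.98 to 6.17 CPM in control DRG (median 3.49) and 3.14 to 19.2 CPM in model DRG (median 7.80). Although 4 of 6 model libraries exceeded all controls, the log2 difference of 1.23 (SE 0.41, unadjusted p = 0.0107) had an adjusted p of 0.466.

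Both genes moved from library to library with the sum of 6 leptomeningeal genes, which was 79.1 to 276 CPM in control DRG and 108 to 756 CPM in model DRG. Igf2 was the highest of the 6, at a mean of 103 CPM in control and 236 CPM in model DRG, and the relation was not tested without it. None of these 6 was called, and all 6 had positive log2 differences (median 1.21). Over the 12 DRG libraries, on log2 values, the correlation of Ptgds with this sum was r = 0.95 (permutation p = 1e-05, the smallest that 100000 resamples can give; adjusted over the 10 members 5e-05) and rho = 0.95 (permutation p = 3e-05, adjusted 0.0003). For Ptgis it was r = 0.95 (permutation p = 1e-05, adjusted 5e-05) and rho = 0.92 (permutation p = 6e-05, adjusted 0.0003). Without the libraries farthest from the median of the sum, model replicate 4 and control replicate 3, r was 0.91 for both genes. Within the 6 control libraries alone r was 0.97 for Ptgds and 0.91 for Ptgis, and within the 6 model libraries 0.95 and 0.92. This relation was looked at after the values had been seen. The adjustment covered the 10 members and not the choice of this list among 17, so the p-values here and below leave that choice out. Resampling also mixed control and model libraries. The part of meningeal content in the DRG differences was not tested.

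**Figure D3:**
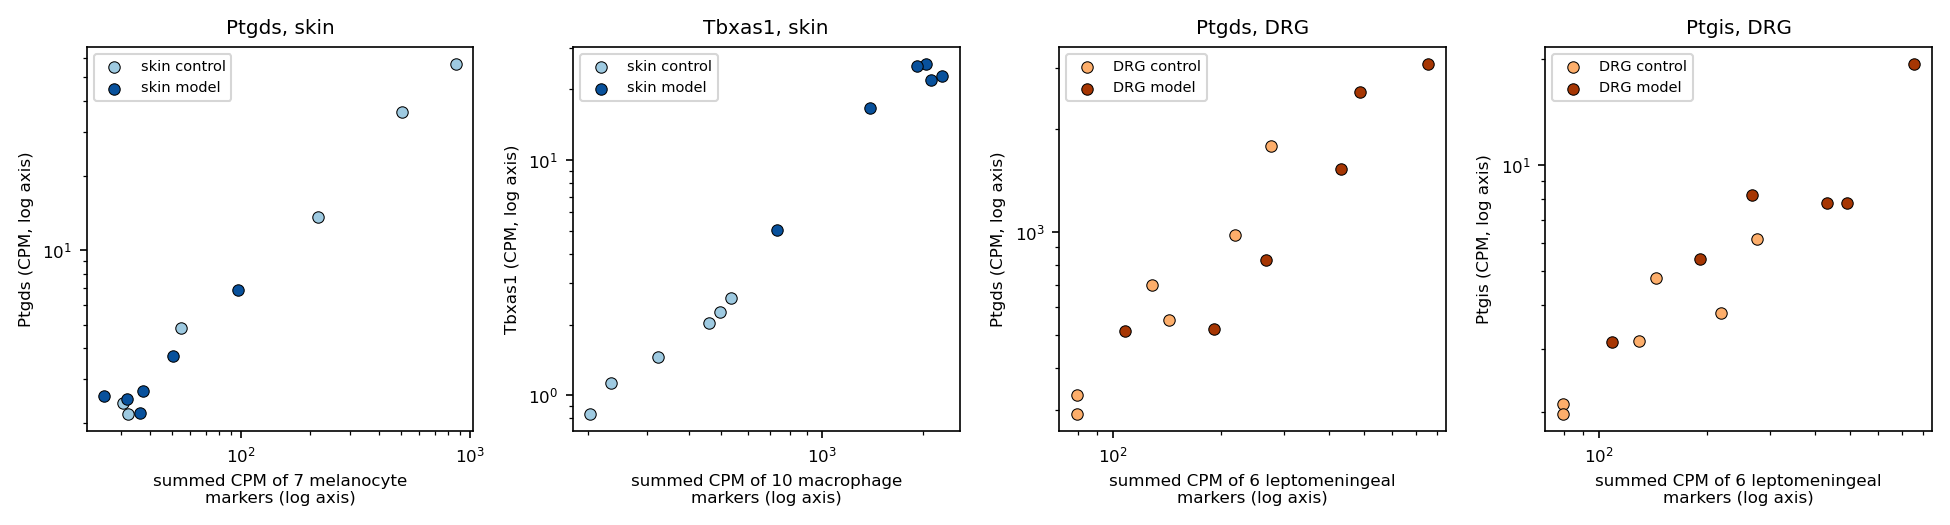
Level of a gene (y axis, CPM, log) against the summed level of markers of a cell type (x axis, CPM, log), 1 point per library: Ptgds against 7 melanocyte genes and Tbxas1 against 10 macrophage genes in skin, and Ptgds and Ptgis against 6 leptomeningeal genes in DRG. Control skin replicates 3, 5 and 6 are the 3 rightmost points of the Ptgds skin panel, at 216 to 867 CPM of melanocyte genes.

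Ptges measured 9.84 to 12.7 CPM in control DRG (median 11.7) and 11.6 to 19.9 CPM in model DRG (median 15). In 4 of 6 model libraries it was above all controls, but the log2 difference was small at 0.37 (SE 0.12, unadjusted p = 0.00797) and its adjusted p was 0.451. Ptgs1 measured 5.60 to 14.0 CPM in control DRG (median 6.51) and 5.72 to 17.8 CPM in model DRG (median 9.76), with a log2 difference of 0.41 (SE 0.29, adjusted p = 0.679). The correlation with the leptomeningeal sum was r = 0.86 (permutation p = 0.00029, adjusted 0.000967) and rho = 0.76 (permutation p = 0.0066, adjusted 0.0165) for Ptges, and r = 0.78 (permutation p = 0.00267, adjusted 0.00667) and rho = 0.87 (permutation p = 0.00034, adjusted 0.00113) for Ptgs1. Without the 2 farthest libraries r was 0.72 for Ptges and 0.66 for Ptgs1. For Ptges the relation was seen in the model libraries (r = 0.93, rho = 0.94) and was weak in the controls (r = 0.36, rho = 0.26). For the other 6 members no Pearson's r passed the adjustment (adjusted permutation p of 0.0733 or more), while Spearman's rho passed it for Ptgs2 (0.66, adjusted permutation p = 0.0366) and Alox5 (0.69, adjusted permutation p = 0.0315). Over the 17 marker sums, rho was highest with the leptomeningeal one for Ptgds, Ptgis and Ptgs1, though Ptgis had 0.90 with the keratinocyte sum. Other sums stood higher for Ptges (endothelial, rho = 0.81), Alox5 (macrophage, rho = 0.91) and Ptgs2 (macrophage, rho = 0.80).

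Ptgs2 in DRG was low, at 0.384 to 1.65 CPM in 5 control libraries and 1.05 to 2.78 CPM in the model. Control replicate 6 alone stood at 9.32 CPM, and its level decided the sign: the log2 difference was -0.28 (SE 0.70, adjusted p = 0.929) with it and 1.05 (adjusted p = 0.419) without it. The same library had the highest control value of Ptgds, Ptgis, Ptgs1 (14.0 CPM), Tbxas1 (1.87 CPM), Alox5 (1.96 CPM) and Ltc4s (0.659 CPM), and the highest control sums of leptomeningeal (276 CPM), macrophage (213 CPM) and endothelial genes (169 CPM).

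The remaining members in DRG lay between 0.200 and 6.80 CPM in every library. The log2 differences were 0.29 for Tbxas1 (adjusted p = 0.813), -0.22 for Hpgds (adjusted p = 0.819), 0.54 for Alox5 (adjusted p = 0.629), 0.25 for Alox5ap (adjusted p = 0.794) and -0.03 for Ltc4s (adjusted p = 0.984). Model replicate 5 had the highest Alox5 (3.83 CPM) and Alox5ap (6.80 CPM) of all DRG libraries, and also the highest sums of macrophage (241 CPM), neutrophil (359 CPM), eosinophil (89.3 CPM) and platelet genes (56.2 CPM). Without it the log2 difference of Alox5ap was -0.08 and that of Alox5 0.18.

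The model effect itself differed between the tissues for 5 members. The effect in skin minus that in DRG, tested in 1 edgeR fit of all 24 libraries, was 3.17 on the log2 scale for Tbxas1 (SE 0.52, adjusted p = 0.000314), 2.20 for Alox5ap (SE 0.43, adjusted p = 0.00156), 2.29 for Ltc4s (SE 0.50, adjusted p = 0.00342) and 2.25 for Ptgis (SE 0.67, adjusted p = 0.0235). For Ptgds it was -3.50 (SE 0.98, adjusted p = 0.0173), from -2.49 in skin and 0.96, not called, in DRG. Of 17251 genes tested 17.1% were called, 10.6% with a higher effect in skin and 6.43% with a lower one. On log2(TPM + 1) the differences of Ptgds (-2.41, adjusted p = 0.0947) and Ptgis (0.78, adjusted p = 0.284) were not called.

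Alox5, called in skin and not in DRG, did not pass this test (0.50, SE 0.46, adjusted p = 0.477). Nor did Hpgds (0.63, adjusted p = 0.240), Ptges (0.15, adjusted p = 0.734), Ptgs2 (0.21, adjusted p = 0.887) or Ptgs1 (-0.48, adjusted p = 0.499). A difference between tissues was therefore not shown for these 5.

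Without the model, skin and DRG held these enzymes at different levels. In control skin 7 members were higher than in control DRG, 2 were lower and Tbxas1 was not called (log2 0.51, adjusted p = 0.203), where 82.2% of 17251 genes were called, 41.6% as higher and 40.6% as lower. The higher genes were led by Hpgds (19.2-fold), Ptgs1 (15.8-fold), Alox5 (5.90-fold) and Ltc4s (5.83-fold), followed by Ptges (5.27-fold), Ptgs2 (3.51-fold) and Alox5ap (3.08-fold). The lower ones were Ptgds (41.1-fold, adjusted p = 1.58e-06) and Ptgis (12-fold, adjusted p = 1.05e-06). Scaling between tissues as unlike as these is approximate. Without control DRG replicate 6 the log2 difference of Ptgs2 was 3.14 in place of 1.81, and without control skin replicate 6 that of Ptgds was -6.04 in place of -5.36.

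Levels of different genes were compared per transcript length, in the deposited TPM. In control skin the mean was 57.2 TPM for Ptgs1, 46.2 for Ptgds, 35.8 for Ptges, 18.4 for Alox5ap and 17.1 for Hpgds. It was 7.59 TPM for Ltc4s, 5.61 for Alox5, 3.89 for Ptgs2, 1.5 for Tbxas1 and 0.352 for Ptgis. The TPM of Tbxas1 did not follow its counts, so its place is uncertain. Control skin replicate 3 had 65 counts and 0.275 TPM, and replicate 2 had 96 counts and 2.15 TPM. Among neighbours in this order only Hpgds and Ltc4s were apart by more than their standard deviations (means ± SD that did not overlap).

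In model skin Alox5ap came highest at a mean of 105 TPM, before Ptgs1 at 59.5, Ptges at 53.7, Ltc4s at 37.8, Hpgds at 24 and Tbxas1 at 20.9. Alox5 at 12, Ptgds at 8.32, Ptgis at 4.21 and Ptgs2 at 4.01 TPM followed, and no neighbours were apart by more than their standard deviations. In DRG the mean of Ptgds was 2193 TPM in control and 4414 TPM in model libraries, and no other member exceeded a mean of 12.1 TPM.

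**Figure D4:**
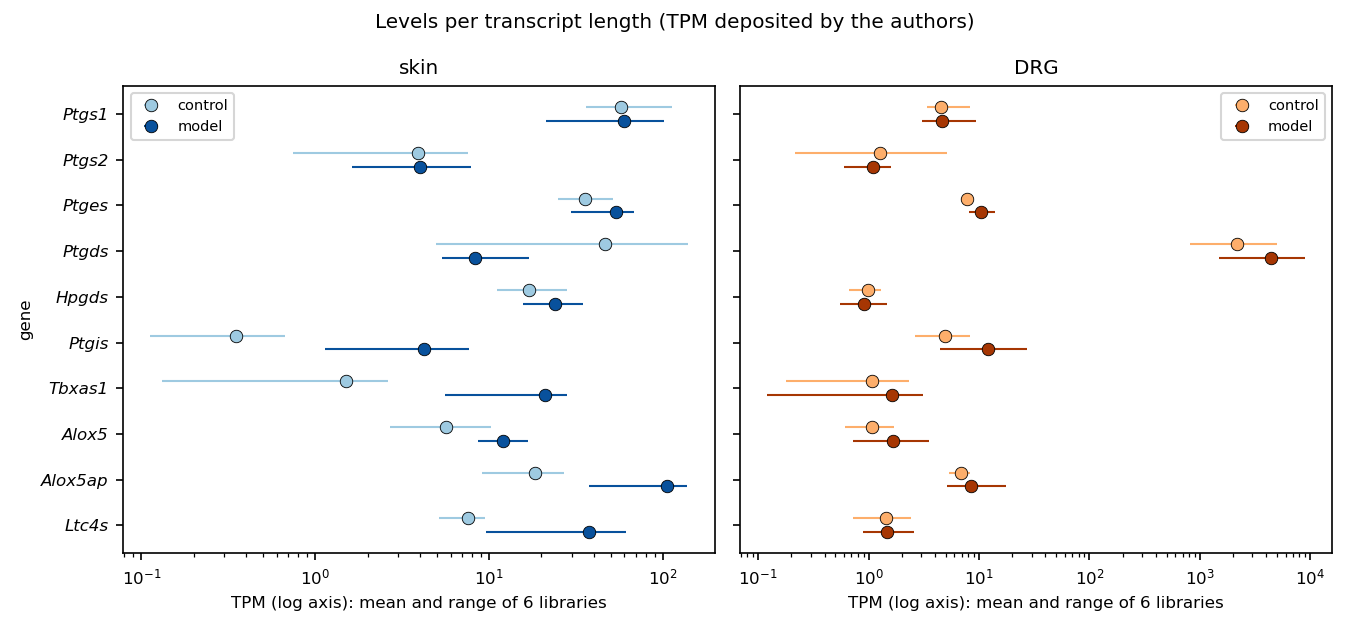
Level of each gene (y axis) per transcript length in the deposited TPM (x axis, log), for control and model libraries of skin and DRG. Points are means and bars the range of 6 libraries. Ptgds stands at 2193 and 4414 TPM in DRG, and Alox5ap moves from 18.4 to 105 TPM in skin.

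The rest of the pathway was followed in 51 further genes. Among phospholipases A2, which release the substrate, 0 of 12 tested in skin were called by edgeR. An unadjusted p under 0.05 was found for 5 of these 12, and for 6904 of all 19526 genes tested in skin. Pla2g4a, the cytosolic enzyme most tied to eicosanoids, measured 38.2 to 55.0 CPM in control and 30.6 to 39.3 CPM in model skin. Its log2 difference of -0.32 had an adjusted p of 0.0511 in edgeR and 0.0156 in DESeq2.

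Of 10 other synthesis enzymes, 3 rose in skin. Dpep2, a dipeptidase that turns leukotriene D4 into E4, went from 2.31 to 8.44 CPM in control to 8.38 to 25.4 CPM in model skin (4.01-fold, adjusted p = 0.00222). Ggt5, which turns leukotriene C4 into D4, rose 2.15-fold (adjusted p = 0.0077) with no overlap between groups, and Akr1b3, an aldose reductase with prostaglandin F synthase activity, rose 1.77-fold (adjusted p = 0.00746). Lta4h, which makes leukotriene B4 and so competes with Ltc4s for leukotriene A4, was at 40.9 to 55.7 CPM in control and 44.0 to 52.3 CPM in model skin (log2 -0.01, SE 0.08, adjusted p = 0.944).

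Among 6 other lipoxygenases, 1 rose and 1 fell. Alox15, the 12/15-lipoxygenase of macrophages and eosinophils, measured 2.59 to 4.51 CPM in control and 7.75 to 27.9 CPM in model skin, a 5.04-fold rise (adjusted p = 0.000553). Alox12 fell by 1.08 on the log2 scale (SE 0.29, adjusted p = 0.0217), from a mean of 18.6 ± 6.80 to 8.80 ± 3.04 CPM (SD, n = 6). That call was lost without control replicate 3 or 6 or model replicate 4 or 6 (adjusted p up to 0.0578).

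Of 7 genes of breakdown and transport, Cyp4f18 alone was called. Cyp4f18, a leukotriene B4 hydroxylase of myeloid cells, measured 0.160 to 0.670 CPM in control and 1.96 to 11.9 CPM in model skin, 20.3-fold higher (log2 4.34, SE 0.45, adjusted p = 0.000548). Its difference on log2(TPM + 1) was 2.83 (adjusted p = 0.000408). Hpgd, which inactivates prostaglandins, had a log2 difference of 0.24 (SE 0.13, adjusted p = 0.202).

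Receptors for prostanoids rose in 3 of 8 tested. Ptger2, a prostaglandin E2 receptor, went from 0.841 to 1.74 CPM in control to 1.24 to 5.44 CPM in model skin (3.65-fold, adjusted p = 0.00179). Ptgir, the prostacyclin receptor, went from 1.02 to 3.95 CPM to 4.12 to 5.75 CPM with no overlap (2.27-fold, adjusted p = 0.0191). Ptger3, another prostaglandin E2 receptor, rose 2.59-fold (adjusted p = 0.0230), a call lost without control replicate 3, 5 or 6 (adjusted p up to 0.0552).

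The other prostanoid receptors were not called. Log2 differences were -0.20 for Ptger1, -0.60 for Ptger4, 0.36 for Ptgfr, 0.43 for Tbxa2r (the thromboxane receptor) and -0.40 for Ptgdr, the lowest adjusted p being 0.1, for Ptger4. Without 1 library Ptger4 was called as lower (without control replicate 2, adjusted p = 0.0428, or model replicate 2, adjusted p = 0.0253) and Ptgfr as higher (without control replicate 2, adjusted p = 0.0461). In control DRG 7 of these 8 receptors were higher than in control skin. Ptgir was 27.4-fold and Ptgdr 15.8-fold higher there, and Ptger4 was 3.21-fold higher in skin.

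Receptors for leukotrienes rose in 2 of 4 tested, both of them receptors of the cysteinyl leukotrienes that start from Ltc4s. Cysltr1 went from 2.36 to 8.31 CPM in control to 5.85 to 15.3 CPM in model skin (3.02-fold, adjusted p = 0.00658). Cysltr2 was low, at 0.589 to 0.936 CPM in control and 0.709 to 1.63 CPM in model skin (1.63-fold, adjusted p = 0.0430). Its call held without control replicate 2, model replicate 4 or model replicate 5, and was lost without any other library (adjusted p up to 0.0948). The leukotriene B4 receptors had log2 differences of 0.02 for Ltb4r1 (adjusted p = 0.959) and -0.05 for Ltb4r2 (adjusted p = 0.905).

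**Figure D5:**
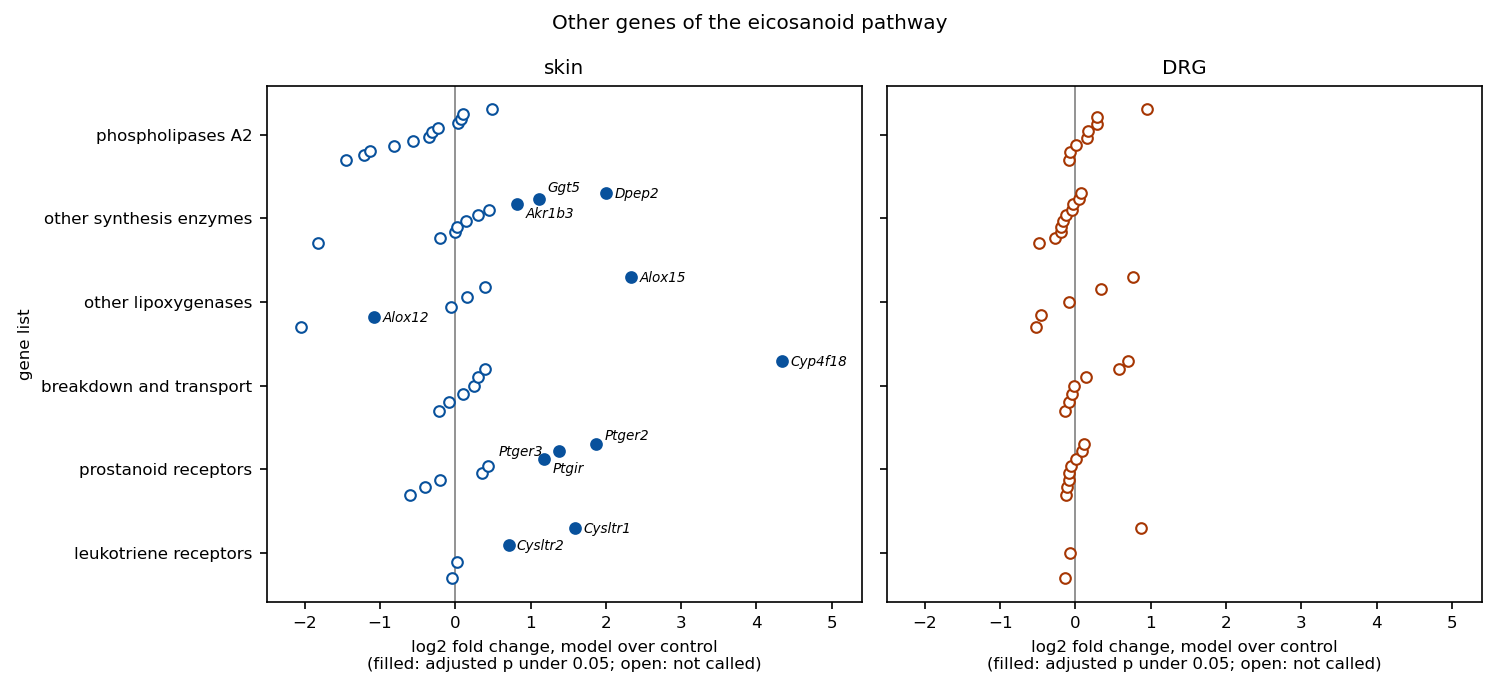
log2 fold change of model over control (x axis) for the other genes of the pathway by list (y axis), in skin and DRG, from edgeR. Filled and named points passed an adjusted p under 0.05, from Cyp4f18 at 4.34 to Alox12 at -1.08 in skin, and none did in DRG.

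In DRG 0 of these genes were called by edgeR, in any of the 6 lists. An unadjusted p under 0.05 was found for 1 of 8 phospholipases A2 tested there, 2 of 10 other synthesis enzymes and 1 of 7 genes of breakdown and transport, and for none of the lipoxygenases and receptors. Over all genes tested in DRG it was found for 1822 of 19509. The model effect differed between the tissues for the genes named as called in skin, and for Pla2g4c (-1.34, adjusted p = 0.0340) and Pla2g4f (-1.54, adjusted p = 0.00916), phospholipases A2 that were called in neither tissue alone and are named here because they were 2 in number, after their values were seen. The call of Pla2g4c was kept in 10 of 24 fits that each left out 1 library (adjusted p 0.00335 to 0.0712), and that of Cysltr2 in 23 of 24 (adjusted p = 0.0515 without control skin replicate 3).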

How the data were processed

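PolyA RNA of 24 mouse libraries (skin and DRG, control and rosacea model, 6 each, grouped by sample title) was sequenced by the authors. Tools named in the submitters' processing notes are HISAT2 2.1.0, StringTie 2.1.3b, bcl2fastq 2.20.0 and Trimmomatic, with the genome GRCm38/mm10. The sources used here do not give the counting tool or its strand setting. The authors deposited counts of reads for each gene, whole and not normalized. TPM values were computed by the authors and used here for levels between genes and in alternatives. FPKM values deposited by the authors were not used.

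Counts were fitted with edgeR 4.0.16 in R 4.3.3 (filterByExpr, TMM, robust quasi-likelihood F test, Benjamini-Hochberg adjustment over all genes tested, threshold 0.05), each tissue alone, and all 4 groups in 1 fit for the tissue difference and the control contrast. CPM are TMM-scaled within a tissue. Standard errors are the log2 fold change divided by the square root of F. Depth set a floor of 3 counts over a group at 0.00864 to 0.0093 CPM, for counting error only. Alternatives were DESeq2 1.42.0, RLE factors, other filters, all 24 libraries in 1 fit, a replicate block, limma 3.58.1 trend on log2(TPM + 1) and log2(TPM + 0.1), a fold limit, TMM within each tissue, and each library left out in turn. The edgeR fits were also run on simulated counts, drawn for each gene on its own and without shared differences in tissue make-up. That run cannot show how the fits behave under such differences, and its outcome is not reported here. None of 60 library pairs within a group was a duplicate (lowest chi-square per gene 9.13).

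The members, gene lists and tests were chosen with earlier results of these data known. All 10 members are named. Of 6 pathway lists (51 genes) up to 3 called genes with the smallest p per tissue are named, with receptors, Lta4h, Pla2g4a and Hpgd. For the called member with the smallest p in each direction, the 3 genes with the highest Spearman correlation over 12 libraries are named, among those averaging 1 CPM or more. Marker lists (17) are given by counts and summed CPM. Gene overlaps are from the GENCODE annotation of GRCm38.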

Additional observations from a re-analysis of the deposited data

Results flagged for a closer look

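In groups of 6 libraries, 1 library stood far from the others in 6 of the 40 combinations of member and group, by Dixon's ratio of its gap to the range. Chance marks about 1 group in 20 only where values are normally distributed and groups are independent. The 40 combinations share the same 24 libraries, and all 6 marked libraries were the highest of their group. In DRG these were model replicate 5 for Alox5 (3.83 CPM) and Alox5ap (6.80 CPM), model replicate 4 for Ptgis (19.2 CPM), and control replicate 6 for Ptgs1 (14.0 CPM) and Ptgs2 (9.32 CPM). In skin it was model replicate 2 for Ptgds (6.90 CPM). Model DRG replicate 4 also had the highest leptomeningeal sum, 756 CPM.

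The model effect differed between skin and DRG, by the contrast of both tissues in 1 edgeR fit, for 18 of the genes named. On the log2 scale, skin minus DRG, it was -3.50 for Ptgds, 2.25 for Ptgis, 3.17 for Tbxas1, 2.20 for Alox5ap and 2.29 for Ltc4s among the members. Among synthesis and release genes it was -1.34 for Pla2g4c, -1.54 for Pla2g4f, 1.26 for Akr1b3, 1.18 for Ggt5 and 1.89 for Dpep2. For the lipoxygenases it was -1.89 for Alox12 and 1.95 for Alox15, and for the leukotriene B4 hydroxylase Cyp4f18 it was 3.73. Receptors gave 1.74 for Ptger2, 1.41 for Ptger3, 1.25 for Ptgir, 1.63 for Cysltr1 and 0.79 for Cysltr2.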

How the results depend on the processing

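Of 1804 gene values under alternatives, 1682 kept direction and side of the threshold, 57 lost the call, 9 gained it and 56 changed sign. The rises of Tbxas1, Alox5, Alox5ap and Ltc4s in skin stayed called under all 9 alternatives and without each library. That of Ptgis did so wherever it passed the filter. No alternative called a member in DRG. The number of members lower in skin, 1, became 0 with no filter, the replicate block, log2(TPM + 1) or log2(TPM + 0.1), and for the tissue difference 0 with log2(TPM + 1) or the block, each time by the loss of Ptgds.

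Over all genes, those lower in skin numbered 2398 with DESeq2, 747 with no filter, 3177 with all 24 libraries in 1 fit, 540 with the replicate block, 460 with log2(TPM + 1), 449 with log2(TPM + 0.1) and 97 with a fold limit (log2 of 1 either way), where 1642 were higher. In DRG, 118 were higher and 18 lower with DESeq2, 12 higher with at least 1 CPM in 6 libraries, 33 with 24 libraries and 6 with the block. For the tissue difference, the lower count was 1719 with DESeq2, 578 with log2(TPM + 1), 669 with the block and 654 with TMM within each tissue.

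Without each library in turn, skin had 2141 to 3724 genes higher and 308 to 2554 lower, with 5 to 6 and 0 to 1 members. The lower count was 2554 without control replicate 2, and 308 to 707 without control replicate 3, 5 or 6 or model replicate 1, 3, 4 or 6. DRG had 11 to 34 higher (11 or 12 without control replicate 1 or 4 or model replicate 3, 34 without model replicate 6) and 0 to 2 lower, with 0 members. The tissue difference had 1505 to 2751 higher and 556 to 1955 lower, with 4 and 1 members, the highest being 2751 higher and 1895 lower without control skin replicate 2 and 1955 lower without model skin replicate 5. The control contrast kept 7 members higher and 2 lower.

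Sign changes concerned genes that were not called in the comparison. In skin, Ptgs1 was 0.016 with the block, 0.040 on log2(TPM + 1) and 0.039 on log2(TPM + 0.1), Ptgs2 0.11, 0.088 and 0.16. Ltb4r1 was -0.017 with 24 libraries and -0.0077 with the block, and Lta4h 0.022 on either TPM scale. In DRG, Ptgs2 was 0.63 with the block, 0.13 and 0.46 on the TPM scales, and Ptgs1 -0.0093 and -0.018 on the latter. For the tissue difference, log2(TPM + 1) gave Ptgs1 0.049 and Ptgs2 -0.042, and the block Ptgs2 -0.50. The cause was not tested. Without each library in turn, skin ranges were -0.20 to 0.25 for Ptgs1, -0.28 to 0.30 for Ptgs2, -0.055 to 0.045 for Lta4h, -0.091 to 0.13 for Ltb4r1, -0.20 to 0.068 for Ltb4r2 and -0.51 to 0.011 for Ptgdr. DRG ranges were -0.50 to 1.05 for Ptgs2, -0.25 to 0.16 for Ltc4s and -0.083 to 0.35 for Alox5ap, and the tissue difference of Ptgs2 ran from -1.12 to 0.52.

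Deviations of same-numbered libraries correlated at -0.55 to 0.32 between control and model skin and -0.55 to -0.06 between the DRG groups. The range was -0.05 to 0.09 between control skin and DRG and -0.17 to 0.07 between model skin and DRG. These values cannot show whether same-numbered skin and DRG libraries came from 1 animal, which the sources used here do not give. The main fit of the tissue difference treated all libraries as separate. With the block Ptgds in skin was -1.49 (adjusted p = 0.291), Ptger3 1.20 (adjusted p = 0.0711) and Cysltr2 0.67 (adjusted p = 0.157), and for the tissue difference Ptgds -2.53 (adjusted p = 0.0708), Alox12 -1.59 (adjusted p = 0.0511), Ptger3 1.22 (adjusted p = 0.0670), Cysltr2 0.74 (adjusted p = 0.0874) and Pla2g4c -1.22 (adjusted p = 0.0819). Depth limits Ptgis in control skin (6 to 29 counts) and Ltc4s in DRG (11 to 42 counts).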
